A study of Rattus norvegicus with 6 samples.

Results

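The 3 arrays described here hold RNA from cultured rat astrocytes that switch on a mutant form of TDP-43, taken at 3, 4 and 6 days of induction, and they were chosen because they are the M337V arrays of a series of 6. They were compared with one another, day 6 against day 3, with day 4 as the check of a steady course. Of 13337 genes with a named probe on the array, 8486 had a detection p-value under 0.05 in 1 or more of these cultures and are described below, and 6815 of these were detected on all 3. The arrays were picked by their labels and not by a cut on a measured value. Earlier results of these data were known when the arrays, lists and tests were chosen.

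The cells were primary astrocytes from rats carrying a pair of transgenes: the tetracycline-controlled transactivator tTA under the promoter of Gfap, the astrocyte intermediate filament gene, and TDP-43 M337V under a tTA-responsive element. Doxycycline (Dox) keeps tTA inactive, so that taking it away induces the mutant protein in cells in which the Gfap promoter is active. The remaining 3 arrays hold astrocytes with the tTA transgene alone, also sampled 3, 4 and 6 days after Dox removal, and both genotypes therefore share tTA and the loss of Dox. Each genotype and day has 1 array. The labels do not give the age or strain of the rats, the number of animals behind a culture, or whether the days came from separate cultures, so no spread between replicates can be had, and every difference between days compares single arrays.

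TDP-43, encoded by Tardbp, is a nuclear RNA-binding protein that controls splicing and RNA stability, and M337V is one of its mutations found in familial amyotrophic lateral sclerosis. Astrocytes take up glutamate, supply neurons with metabolites and, after injury, adopt a reactive state in which Gfap, secreted proteins such as lipocalin 2 and complement components are raised. Cultures of primary astrocytes commonly also contain some microglia, the macrophages of the brain, and cells of the oligodendrocyte lineage, which form myelin, and contact with fibroblasts of the meninges can occur in dissection.

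Between 43.8% and 48.3% of the 22523 probes were detected on the 3 M337V arrays, which correlated with each other at 0.98 to 0.99 across the 8486 genes. Day 3 was the dimmest array, with a mean signal of 377 before normalization against 526 on day 4 and 554 on day 6, and the control arrays lay between 468 and 481. The share of this gap in any change over time was not tested, and values were normalized between arrays to the same distribution. Levels are log2 signals after that normalization. Differences between days are log2 differences of the same probe, and levels of different probes are not set against each other. Markers of the labelled cell type were present. Of these, 16 of 17 astrocyte markers on the array were detected, and Gfap was at 15.05, 15.12 and 15.05 on days 3, 4 and 6. Slc1a3, the glutamate and aspartate transporter GLAST, was at 13.70, 13.74 and 13.79, and S100b, a calcium-binding protein of astrocytes, at 12.59, 12.65 and 12.84. Markers of other cells were detected as well. The summed linear signal of the 17 microglia and macrophage markers that were detected was 10174 on day 3, 12290 on day 4 and 30478 on day 6, and 756 to 1129 on the control arrays. In RNA from a whole culture, more cells of a type and more RNA per cell cannot be told apart.

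On day 6, genes of complement, microglia and the oligodendrocyte lineage were higher than on day 3, with list medians of 1.18, 1.12 and 0.84. Markers of fibroblasts and meninges and genes of mitosis were lower, with medians of -0.91 and -0.73. Among 8113 genes detected on day 3 or day 6, 225 were at least 2-fold higher on day 6, which is 2.77%, and 75 were at least 2-fold lower, which is 0.924% (3.7% either way). A change of at least 4-fold was seen in 21 higher and 5 lower genes. The median difference over all genes was -0.00, and 9 in 10 genes lay between -0.61 and 0.73. With 1 array per day, 2-fold is a rule of size and not a test. Just inside and just outside it lay many genes, since a further 80 were 1.8 to 2-fold higher and 69 were 1.8 to 2-fold lower.

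Most of these differences ran in 1 direction across the 3 days. Day 4 lay between day 3 and day 6 in 206 of the 225 higher genes and in 72 of the 75 lower genes, which is 91.6% and 96%, against 48.6% of all genes described. The rule that chose these genes uses days 3 and 6 and so favours a day 4 value in between, and these shares are a description. The higher genes had covered a median of 0.39 of their final difference by day 4 (214 genes detected on all 3 arrays), and the lower genes 0.51 (74 genes), where a straight line over the days would give 0.333. More than 50% of the difference had appeared by day 4 in 72 of the 214 higher and 38 of the 74 lower genes. From day 3 to day 4, 35 genes were at least 2-fold higher (0.434%) and 18 lower (0.223%), and from day 4 to day 6, 89 were higher (1.07%) and 16 lower (0.192%).

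**Figure D1:**
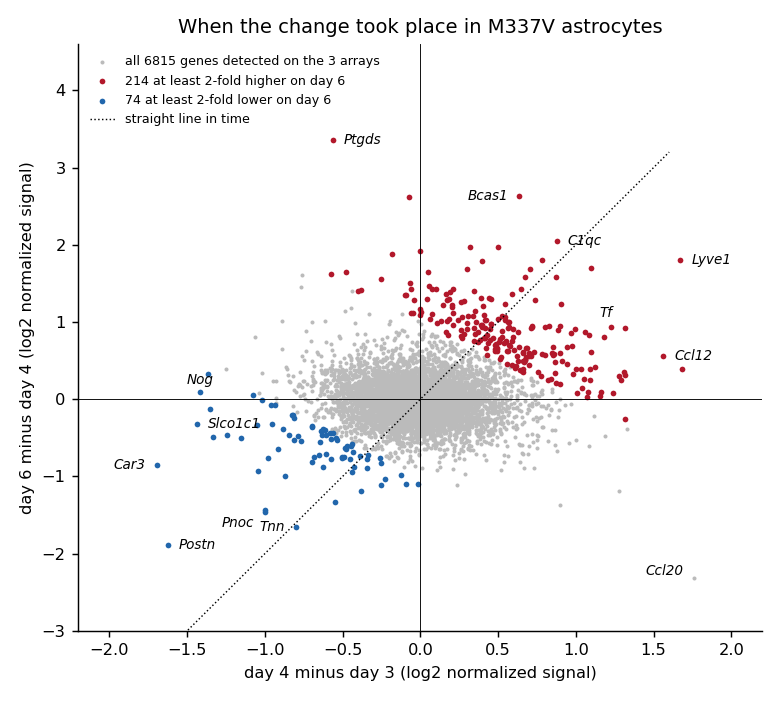
Each point is 1 of the 6815 genes detected on all 3 M337V arrays, with its log2 difference from day 3 to day 4 on the horizontal axis and from day 4 to day 6 on the vertical axis. Red points are the 214 genes at least 2-fold higher on day 6 than on day 3, blue points the 74 at least 2-fold lower, and the dotted line is a straight course over the days. Bcas1 and C1qa lie above that line and C1qb and C1qc close to it, while Slco1c1 and Car3 had most of their difference by day 4.

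Complement component C1q starts the classical complement pathway and is made of the products of C1qa, C1qb and C1qc, which microglia are the main source of in brain. These genes are neighbours on rat chromosome 5, in the order C1qb, C1qc, C1qa. The promoter of C1qc, which differed most of these genes, was not among the sequences available. The promoters of C1qa and C1qb, from 250 bases before to 50 after the start of each gene, are shown because both genes were among those that differed most between the days. They were read 5′ to 3′ on the gene's strand from RefSeq (assembly GRCr8), C1qa at chr5:154419884-154420183 and C1qb at chr5:154407778-154408077, both on the minus strand. Capitals mark GAGGAA or its reverse complement TTCCTC, the core of the site of PU.1, the ETS factor of macrophages and microglia.
C1qa: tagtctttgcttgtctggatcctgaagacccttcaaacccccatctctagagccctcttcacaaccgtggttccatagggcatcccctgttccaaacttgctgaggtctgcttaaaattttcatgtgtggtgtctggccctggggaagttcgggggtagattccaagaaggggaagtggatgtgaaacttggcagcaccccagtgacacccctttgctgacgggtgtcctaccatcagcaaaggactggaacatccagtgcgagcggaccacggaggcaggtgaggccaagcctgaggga
C1qb: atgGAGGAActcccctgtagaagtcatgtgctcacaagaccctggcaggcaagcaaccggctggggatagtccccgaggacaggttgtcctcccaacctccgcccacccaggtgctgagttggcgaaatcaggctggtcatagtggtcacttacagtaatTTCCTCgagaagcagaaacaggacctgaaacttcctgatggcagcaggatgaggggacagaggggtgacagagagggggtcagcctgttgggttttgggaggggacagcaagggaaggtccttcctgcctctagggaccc
Both strands were searched. C1qb holds the motif 2 times, 247 bases before the start on the gene's strand and 90 bases before it on the opposite strand, and C1qa holds none in this window. Only this exact sequence was searched, so PU.1 sites of another form were not looked for. The motif is present in 27.6% of 33469 promoters of this length.

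All 3 C1q genes were lowest on day 3 and highest on day 6. C1qc was at 8.27, 9.15 and 11.19 on days 3, 4 and 6, which is 7.58-fold higher on day 6 than on day 3. C1qb was at 9.67, 10.46 and 12.26, a 6.00-fold difference, and C1qa at 8.23, 8.55 and 10.52, a 4.90-fold difference. About 0.30 of the change in C1qb and C1qc, and 0.14 of that in C1qa, had taken place by day 4. Of the 12 complement genes detected, 7 were at least 2-fold higher on day 6 and none lower, with a list median of 1.18. The others were Serping1, which encodes the C1 inhibitor (9.93, 10.87 and 11.55), Cfd, which encodes factor D of the alternative pathway (6.14, 6.22 and 7.64), Cfb, its factor B (8.54, 9.79 and 9.87), and C2 of the classical pathway (10.89, 11.51 and 11.94). Serping1 and Cfb had most of their difference by day 4, whereas Cfd hardly differed between days 3 and 4. C1r and C1s, the proteases that associate with C1q, were higher by 0.64 and 0.49. Cfp, which encodes properdin and stabilizes the alternative pathway convertase, was outside the list and stood at 7.23, 7.73 and 9.70, 5.55-fold higher on day 6. Without the C1q genes, which are also in the microglia list, 4 of 9 complement genes were at least 2-fold higher and the median was 0.81, a setting chosen after seeing the data. On the control arrays the median of the complement list was 0.82, with 3 of 9 genes at least 2-fold higher, and 0.85 over 8 genes without the C1q genes.

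The microglia and macrophage list was higher beside complement. Of its 16 genes with a day 6 to day 3 difference, 10 were at least 2-fold higher and none lower, and the median was 1.12. Aif1, which encodes the microglial protein Iba1, was at 10.75, 11.10 and 12.50. Ctss, which encodes the lysosomal protease cathepsin S, was at 10.15, 10.20 and 11.84. Both differed less between days 3 and 4 than between days 4 and 6. Cd53 and Laptm5, membrane proteins of blood-derived cells, were higher by 1.52 and 1.37, and Fcer1g, the signalling chain of Fc receptors, by 1.19. Itgam, the integrin CD11b, was not detected on day 3 and was at least 2.07-fold higher on day 6, a call lost in several settings (lowest difference 0.28). Trem2, a lipid receptor of microglia, stood at 9.80, 9.82 and 10.66 and stayed under 2-fold. The microglia-specific genes Tmem119 and P2ry12 were at or near the detection limit, with levels of 4.73 to 5.01 and 4.43 to 5.01, and Cx3cr1 was at 5.21, 5.14 and 5.22. The median of the list was 0.16 from day 3 to day 4 and 1.01 from day 4 to day 6. The part of cell number in these differences was not tested.

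Several further genes with large differences are known from macrophages and other cells of blood origin. Lyve1, a hyaluronan receptor of lymphatic endothelium and of macrophages beside blood vessels, was at 6.51, 8.19 and 9.98, 11.1-fold higher on day 6. Ccl6, a CC chemokine of rodents, was at 5.69, 6.79 and 8.49, a 6.96-fold difference. Ccl12, another chemokine, was at 6.15, 7.71 and 8.27, with most of its 4.36-fold difference by day 4. Lyve1 and Ccl6 were about midway on day 4. Fli1, an ETS factor of blood and endothelial cells, was at 5.10, 6.00 and 7.23, and the organic anion transporter gene Slco2b1 at 5.21, 5.89 and 7.47. Ctla2a, which encodes an inhibitor of cysteine proteases, was below detection on day 3 and then at 6.02 and 8.77, at least 13.1-fold higher on day 6 than the day 3 detection limit. Ccl3, a chemokine of activated macrophages, was at 6.29 on days 3 and 4 and at 8.22 on day 6.

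Genes of the oligodendrocyte lineage formed a further group that was higher on day 6. Of 11 detected, 4 were at least 2-fold higher, none was lower, and the median was 0.84. Bcas1, a marker of oligodendrocytes that begin to form myelin, was at 7.95, 8.58 and 11.22, 9.63-fold higher on day 6. Ugt8, the enzyme that makes galactosylceramide of myelin, was at 7.12, 7.52 and 9.31, a 4.55-fold difference. Sox10, the transcription factor that defines the lineage in the brain, was at 7.22, 7.87 and 9.29, and Pdgfra, the receptor of its progenitors, at 7.89, 8.74 and 9.41. Bcas1 and Ugt8 showed about 0.19 and 0.18 of their difference by day 4. The genes of compact myelin were not part of this: Mbp was at 5.41, 5.05 and 5.73, near the detection limit, and Mag and Mog were not well above it either, with levels between 4.40 and 5.25. Olig1 was already at 12.34 on day 3 and 0.84 higher on day 6. The summed signal of the list was 7586, 10197 and 16200 on the 3 days.

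**Figure D2:**
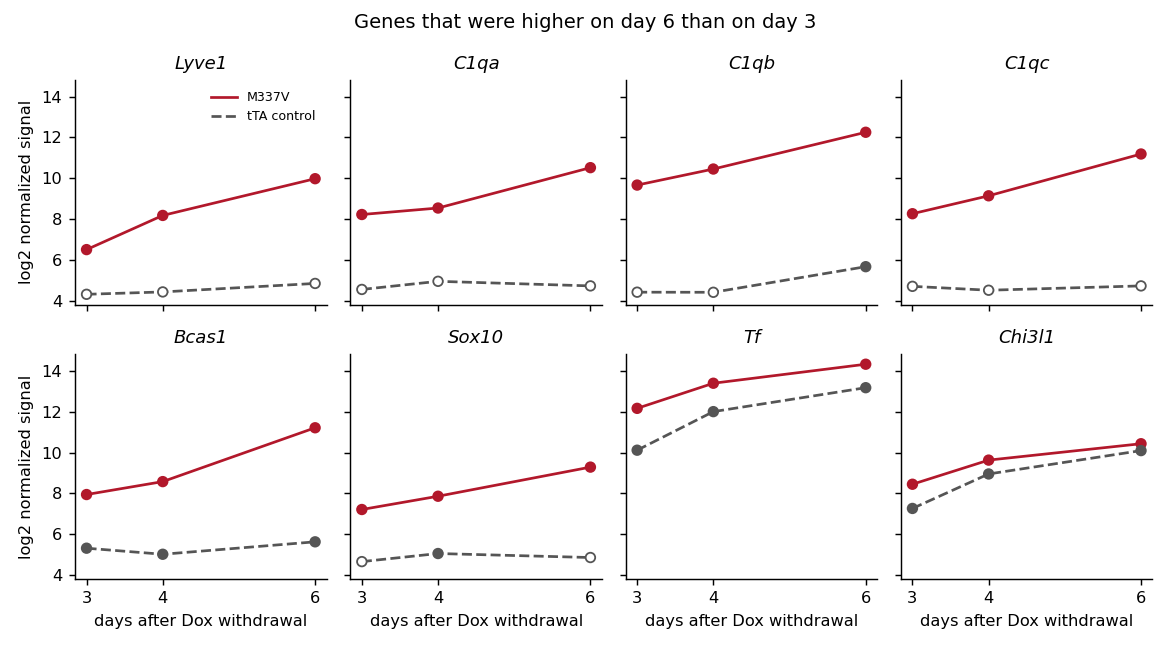
Normalized log2 level of 8 genes that were higher on day 6 than on day 3 in the M337V arrays (red), against days after Dox removal, with the tTA control arrays in grey. There is 1 array per point, filled where the gene was detected and open where it was not. C1qa and Bcas1 climb mainly after day 4, while C1qb, C1qc and Sox10 climb at a near-even rate per day. Tf and Chi3l1 climb faster before day 4 than after it, and they climb in the control arrays too.

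Tf and Chi3l1 belong to the secreted proteins. Tf, which encodes the iron carrier transferrin, was at 12.17, 13.40 and 14.33, a 4.47-fold difference. Chi3l1, which encodes a chitinase-like protein secreted by reactive astrocytes, was at 8.45, 9.63 and 10.44, and Lcn2, the secreted lipocalin 2, at 8.42, 9.74 and 9.49. Lcn2 reached its level by day 4 and passed 2-fold narrowly, at 2.09-fold. Its difference was 0.89 without background correction, below 2-fold. Over the same days the control arrays showed larger differences in Tf (3.06), Chi3l1 (2.83) and Lcn2 (1.32) than the M337V arrays (2.16, 1.98 and 1.06). The difference between genotypes was not tested. Of 13 genes raised in reactive astrocytes of several kinds, 3 were at least 2-fold higher, namely Chi3l1, Lcn2 and the ferroxidase gene Cp (ceruloplasmin, 11.47, 12.34 and 12.54), and 1 was lower. The lower gene was Serpina3n, a serine protease inhibitor, at 7.79, 6.83 and 6.52. Gfap itself differed by 0.00 between day 6 and day 3.

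Antigen presentation genes were higher in part. Of 14 with a difference, 5 were at least 2-fold higher and none lower, with a median of 0.47. RT1-DMb, the rat counterpart of the chaperone chain that loads peptides on class II molecules, was at 8.84, 9.55 and 11.23, and its partner RT1-DMa at 7.61, 7.69 and 8.79. The class I genes RT1-A1 and RT1-S3 were higher by 1.23 and 1.33. Class I and class II genes of the rat lie in families of near-identical copies, and a probe may read more than 1 of them. RT1-A1 and RT1-S3 had covered 0.55 and 0.51 of their difference by day 4, while RT1-DMa hardly differed between days 3 and 4. Interferon-induced genes had 2 of 16 at least 2-fold higher, the GTPase gene Ifi47 (7.36, 7.90 and 9.13) and Ifitm1 (7.59, 8.07 and 8.79), none lower, and a median of 0.31. Among 23 cytokine and chemokine genes, Ccl3 and Pf4, platelet factor 4, were at least 2-fold higher and none was lower, with a median of 0.14. Ccl6 and Ccl12, described above, are chemokines outside this list. Casp1, the protease that activates interleukin 1 beta, was at 7.20, 7.47 and 8.54 and the only member called of 19 caspase and apoptosis genes.

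Other genes with large differences belong to epithelial adhesion, growth factor signalling and metabolism. Tgfa, a ligand of the EGF receptor, was at 6.52, 7.40 and 8.98, 5.50-fold higher on day 6, and at 5.85, 5.51 and 5.58 on the control arrays. Krt8, an epithelial keratin, was at 7.41, 8.73 and 9.66, and Itgb4, the integrin subunit of hemidesmosomes, at 8.82, 9.81 and 10.72. Txnip, the thioredoxin inhibitor induced by glucose, was at 10.19, 10.93 and 12.21. Ptgds, the prostaglandin D synthase of meninges and oligodendrocytes, took another course, at 5.49, 4.93 and 8.28, with the lowest value on day 4. The glutathione transferases Gstm1 and Gstm2 were higher by 1.31 and 1.14. Among the 7 genes of the ependymal cilium, Cfap126 (9.11, 10.23 and 10.64) and Tppp3 (8.65, 9.72 and 9.82) were at least 2-fold higher, and the median of 0.62 was already reached by day 4.

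Some genes of the extracellular matrix were much lower on day 6, while most of the matrix lists stayed under 2-fold. Postn, which encodes the matrix protein periostin, was at 9.45, 7.83 and 5.94 and so was 11.4-fold lower. Tnn, tenascin N, was at 12.01, 11.21 and 9.54, 5.51-fold lower. Lox, the enzyme that crosslinks collagen, was at 11.93, 11.06 and 10.06, and Col3a1, a fibrillar collagen chain, at 8.23, 6.99 and 6.53. All 4 were lower at each step. By day 4 Tnn had covered 0.33 of its difference, near the 0.333 of a straight line, and Col3a1 0.73. Thbs2, thrombospondin 2, was lower by 1.56, Bgn, the proteoglycan biglycan, by 1.44 and Sdc1, the cell surface proteoglycan syndecan 1, by 1.35. Of 19 genes of fibrillar collagens and their maturation, 4 were at least 2-fold lower, none higher, and the median of -0.36 became 0.08 under median scaling. Of 23 matricellular proteins and proteoglycans, 5 were lower and 1 higher, the growth regulator Ccn3 (8.37, 9.03 and 9.64), with a median of -0.19, or -0.04 under median scaling. Sparc, a collagen-binding protein that astrocytes secrete, was at 14.26, 14.19 and 14.22.

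The markers of fibroblasts and meninges overlap with these lists. Of 9, 4 were at least 2-fold lower, namely Postn, Col3a1, Col1a1 and Fn1 (fibronectin), 1 was higher, Ptgds, and the median was -0.91. By sign, 7 of the 9 were below 0, while Igf2 was higher by 0.87, under 2-fold. Col1a1 was at 7.98 on day 4 and 6.88 on day 6, with its difference of -1.12 from day 3 almost all after day 4, and Col1a2, its partner chain, was at 14.22, 14.09 and 13.55. The summed signal of the list was 30673, 26635 and 17759, and the part of these cells in the matrix differences was not tested. Genes controlled by TGF-beta and contractile genes went the same way, with 2 of 14 at least 2-fold lower, the ligand Tgfb3 (7.56, 6.91 and 6.19) and the latency protein Ltbp1 (8.60, 8.12 and 7.48), none higher and a median of -0.45. Under median scaling the differences of Col1a1, Fn1, Bgn, Tgfb3 and Ltbp1 stayed below 0 and were under 2-fold, between -0.96 and -0.63.

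**Figure D3:**
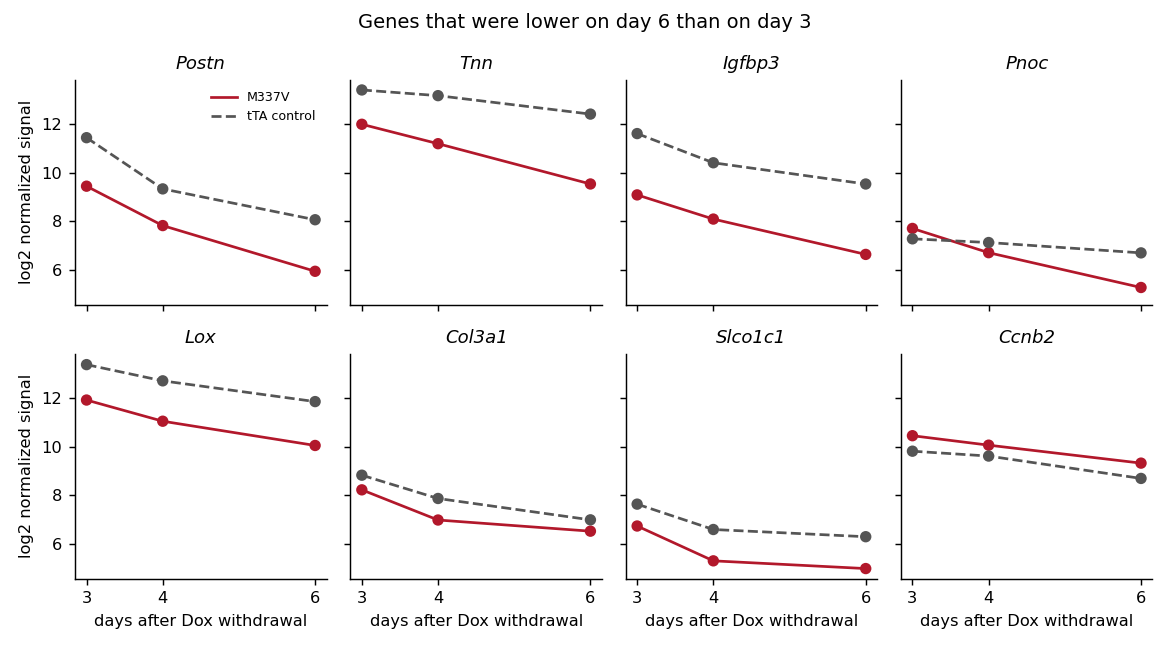
Normalized log2 level of 8 genes that were lower on day 6 than on day 3 in the M337V arrays (red), against days after Dox removal, with the tTA control arrays in grey and 1 array per point. Postn, Igfbp3, Lox, Col3a1, Slco1c1 and Ccnb2 go down in both genotypes, while Tnn and Pnoc go down further in the M337V arrays, by 2.46 and 2.43 against 0.99 and 0.58.

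Some genes of secreted signals were lower on day 6, while others named above were higher. Igfbp3, which binds insulin-like growth factors, was at 9.09, 8.10 and 6.64, 5.48-fold lower, while Igfbp6, another member of its family, was at 5.59, 6.07 and 6.72, higher by 1.14. Pnoc, the precursor of nociceptin, was at 7.71, 6.71 and 5.28, 5.41-fold lower. Penk, the enkephalin precursor, was at 9.93, 8.60 and 8.11, Npy, neuropeptide Y, at 8.06, 7.36 and 6.55, and Vgf, a secretory granule protein, at 6.84, 6.59 and 5.49. These were the 3 members of the granin and neuropeptide list called lower, of 11, with none higher and a median of -0.40. Without background correction Vgf (-0.58) and Npy (-0.93) were under 2-fold and the median was -0.15. Fst, which binds activin, was lower by 1.56 and Nog, which binds bone morphogenetic proteins, by 1.33. Cd93, a surface receptor of endothelial and myeloid cells, was at 7.41, 6.86 and 5.53. Car3, a muscle-type carbonic anhydrase, was at 8.07, 6.37 and 5.52, and Acta1, the actin of skeletal muscle, at 8.66, 7.61 and 6.68. Gldn, gliomedin, was at 11.90, 10.92 and 10.16, and Ramp2, which partners the calcitonin receptor-like receptor, was lower by 1.65.

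Genes of mitosis shared a smaller difference of the same direction. On day 6, 22 of 23 were lower, against 4084 of 8113 over all genes. For that reason the promoters of Ccnb2, which encodes cyclin B2, and of Cdc20, the activator of the anaphase-promoting complex, are shown. Both come from RefSeq, GRCr8, minus strand, Ccnb2 at chr8:79981609-79981908 and Cdc20 at chr5:137255750-137256049, with 250 bases before and 50 after the start. Capitals mark TTTGAA, the cell cycle genes homology region through which cell cycle genes are repressed in resting cells.
Ccnb2: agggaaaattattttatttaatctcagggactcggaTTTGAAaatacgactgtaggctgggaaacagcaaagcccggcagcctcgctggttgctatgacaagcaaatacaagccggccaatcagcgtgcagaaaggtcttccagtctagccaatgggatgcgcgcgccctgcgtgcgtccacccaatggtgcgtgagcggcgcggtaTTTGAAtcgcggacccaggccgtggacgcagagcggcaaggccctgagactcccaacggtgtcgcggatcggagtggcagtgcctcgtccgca
Cdc20: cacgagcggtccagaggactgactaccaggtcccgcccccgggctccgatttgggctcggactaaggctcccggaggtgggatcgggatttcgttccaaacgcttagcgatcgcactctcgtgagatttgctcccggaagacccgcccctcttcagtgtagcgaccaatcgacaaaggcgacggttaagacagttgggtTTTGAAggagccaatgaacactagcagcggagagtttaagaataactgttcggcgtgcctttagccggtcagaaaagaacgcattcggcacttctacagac
Both strands were searched. Ccnb2 holds it 214 and 43 bases before the start and Cdc20 51 bases before it, and 18.3% of 33469 promoters hold it.

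Ccnb2 was at 10.46, 10.07 and 9.33, 2.19-fold lower on day 6, and Cdc20 at 9.48, 8.97 and 8.49, lower by 0.99 and so just under 2-fold. Kif20a, a kinesin of late mitosis, was at 9.32, 8.88 and 7.94. The median of the 23 genes was -0.73, with 2 at least 2-fold lower and 1 higher. The gene that went the other way was Aurkb, the Aurora B kinase, at 11.13, 11.78 and 12.15, against 8.53, 8.93 and 8.54 on the control arrays. DNA replication genes had a median of -0.41 with 20 of 22 below 0, and none reached 2-fold. Genes of cholesterol synthesis and uptake had a median of -0.53, 12 of 14 below 0 and 1 at least 2-fold lower, Fdps, farnesyl diphosphate synthase (9.85, 9.16 and 8.81). The medians stayed below 0 with median scaling, cyclic loess, the deposited values and no background correction, but with median scaling they were -0.31 for mitosis, -0.05 for DNA replication and -0.06 for cholesterol genes. Under median scaling Ccnb2 (-0.69), Kif20a (-0.92) and Fdps (-0.58) were under 2-fold.

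The genes that define mature astrocytes changed little. Of 16, 1 was at least 2-fold lower, Slco1c1, the thyroxine transporter of astrocytes and brain capillaries, at 6.74, 5.30 and 4.99, and the median was 0.13. Aqp4, the water channel of astrocyte endfeet, was at 11.29, 11.05 and 10.86, Apoe, the lipid carrier, at 13.86, 14.28 and 14.69, and Mlc1, a membrane protein of endfeet, at 11.59, 11.95 and 12.30. Slc1a2, the glutamate transporter GLT-1, was at 6.63, 6.44 and 6.37. In the list for glutamate and glutamine handling, 1 of 12 was at least 2-fold higher, Slc1a1, the transporter EAAC1 (9.57, 10.33 and 10.69), and the median was 0.10. Tardbp was at 11.21, 11.24 and 10.84, a difference of -0.37 between days 6 and 3 that ran from -0.37 to 0.05 over the settings tried. The labels and files do not say whether its probe reads the transgene, so it checks neither the genotype nor the induction. Among 18 genes of TDP-43 and its RNA-binding partners none reached 2-fold, and Hnrnpa1 had the lowest difference at -0.93.

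Among lists for general cell functions, none of 26 oxidative phosphorylation genes (median 0.05), 28 proteasome genes (-0.11), 27 cytosolic ribosomal protein genes (-0.16), 12 heat shock genes (-0.19), 23 genes of integrated and unfolded protein stress (-0.12) or 15 genes of glycolysis (0.17) reached 2-fold. None did either among 12 hypoxia-inducible genes (0.14), 13 genes of cell cycle arrest (0.03), 8 clock genes (0.00), 16 immediate early genes (0.33), 17 neurotrophic factors (-0.06), 17 matrix proteases and inhibitors (-0.07) or 9 neural progenitor genes (-0.15). Markers of neurons (median 0.16 over 10), endothelium (0.29 over 6) and pericytes (-0.52 over 5) gave 1 gene at least 2-fold lower, the neurofilament gene Nefl, which was not detected on day 6 and was at least 2.04-fold lower, a call lost in several settings (difference closest to 0, -0.33). Integrins (0.21, 2 of 10 higher), lysosomal genes (0.28, 1 of 18 higher), prostaglandin genes (0.46, 2 of 11 higher), iron and metallothionein genes (0.08, 3 of 16 higher) and antioxidant genes (0.14, 2 of 23 higher) had no member called lower. Lipid metabolism (0.01, 1 of 20 higher), NF-kappaB feedback (0.13, 1 of 10 higher) and the neurotoxic set of reactive astrocyte genes (0.08, 3 of 9 higher) did not either. The trophic set of reactive genes (-0.22 over 6) had no call, and network collagens (-0.32, 1 of 9), the insulin-like growth factor axis (-0.30, 1 of 12 lower and 1 higher) and Wnt, BMP and Notch genes (-0.14, 1 of 22 lower) each had a single gene called lower. Under median scaling, which moved the median of all genes to 0.33, the medians for network collagens, the trophic set, the growth factor axis, and the Wnt, proteasome, ribosomal, heat shock, protein stress, progenitor, neurotrophic, matrix protease and TDP-43 partner lists were above 0. On the deposited values the medians for astrocyte markers, neurons, endothelium and glutamate handling were below 0, between -0.09 and -0.02, and those for caspases, iron and cell cycle arrest likewise lay within 0.09 below 0.

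**Figure D4:**
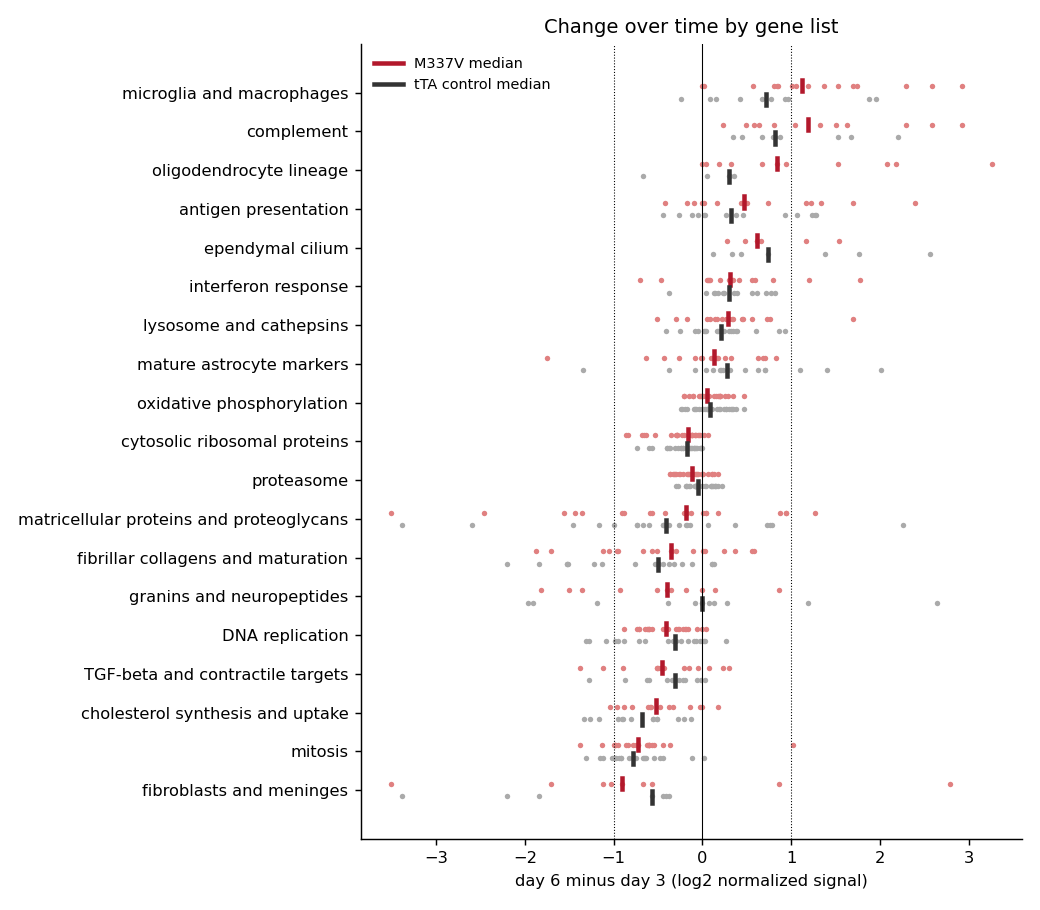
Log2 difference between day 6 and day 3 for gene lists, with the M337V arrays in red and the tTA control arrays in grey. Small dots are member genes, large symbols are the medians, and dotted lines mark 2-fold. Complement, microglia and oligodendrocyte genes lie furthest to the right in the M337V arrays (medians 1.18, 1.12 and 0.84), and fibroblast and mitosis genes furthest to the left (-0.91 and -0.73).

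Large departures on day 4 were few by a 2-fold rule, although day 4 lay between days 3 and 6 in only 48.6% of all genes described. A level on day 4 at least 2-fold above both other days was seen in 2 genes, Ccl20 (5.47, 7.23 and 4.92) and Ccl5 (5.38, 6.66 and 5.47), both chemokines, and no gene was at least 2-fold below both. Cxcl13, the chemokine that attracts B cells, was next at 5.38, 6.28 and 4.92. Fos, the immediate early gene, had the lowest day 4 relative to its nearer neighbour, at 9.90, 9.01 and 10.02, and Mgp, matrix Gla protein, was at 7.63, 6.57 and 7.37. Of the 8486 genes described, 479 were not detected on day 3 but were on days 4 and 6. Another 114 were detected on days 3 and 4 and not on day 6. Detection on a single day was seen for 171 genes on day 3, 373 on day 4 and 428 on day 6. Not detected means a detection p-value of 0.05 or more, not absence of the RNA. Day 3 was the array with the fewest probes detected, and the part of its lower brightness in these counts was not tested. Of the genes at least 2-fold higher on day 6, 11 were not detected on day 3, among them Ctla2a, Apbb1ip, Gna15, Dmrtb1, Gabbr2 and Rnf208, the last 5 each at least 2.24 to 2.30-fold higher. These 5 calls were lost in several settings, with lowest differences of 0.34 to 0.42.

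A straight line over the 3 days was fitted to each gene with limma, with 1 residual degree of freedom and the variance shared across genes (prior degrees of freedom 4.82), so that the error measures departure from a line and not the spread between cultures. After Benjamini-Hochberg adjustment over 8486 genes, 16 genes rose (0.189%) and 5 fell (0.0589%), and 1440 had an unadjusted p under 0.05. C1qc rose with a slope of 0.98 ± 0.07 log2 units per day (SE, adjusted p = 0.0243). Lyve1 rose by 1.12 ± 0.10 per day (adjusted p = 0.0271), Bcas1 by 1.12 ± 0.10 (0.0243) and Sox10 with an adjusted p of 0.0279. The other rising genes were C1qb, Ccl6, RT1-DMb, Slco2b1, Tgfa, Cfp, Txnip, Adap2, Fli1, Ifi47, Ugt8 and Ctla2a. The fit of Ctla2a used its day 3 signal below background, so its slope has no exact value. Postn fell by 1.14 ± 0.09 per day (adjusted p = 0.0243), and Tnn, Igfbp3, Pnoc and Cd93 fell too. All 21 were also at least 2-fold different, but slope and fold come from the same values, so this overlap is no separate support. C1qa did not pass (adjusted p = 0.0567), nor did Lox (adjusted p = 0.0567) or Ccnb2 (adjusted p = 0.0752). The number of genes that pass is not stable: it was 1 when the 3 arrays were normalized alone and 936 when the prior variance was allowed to depend on the level.

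The control arrays give the course of the same days without mutant TDP-43, and their values stand beside those of the M337V arrays without a test of the difference. On them 113 of 7915 genes were at least 2-fold higher on day 6 (1.43%) and 103 lower (1.3%). Of the 225 genes higher in the M337V arrays, 156 could be measured in the controls on day 3 or 6, and 48 of these were also at least 2-fold higher there. Of the 75 lower genes, 74 could be measured and 29 were also at least 2-fold lower. By sign alone, 131 of the 156 were positive and 68 of the 74 negative in the controls. Their median control differences were 0.66 and -0.79, beside 1.33 and -1.23 for all 225 and 75 genes in the M337V arrays. These genes were chosen for a 2-fold difference in the M337V arrays, so their larger medians there follow in part from the choice. The control median was 0.01 over the 7494 genes described here that could be measured in the controls on day 3 or 6. As shares of all 225 and 75, including those not measurable in the controls, 21.3% of the higher and 38.7% of the lower genes were called the same way there, and of the genes described here that were called in the controls, 42.1% of the higher and 29.9% of the lower were called in the M337V arrays. Postn (-3.51 in M337V and -3.38 in the controls), Col3a1 (-1.70 and -1.84), Cfap126 (1.54 and 2.56) and the mitosis list (median -0.73 and -0.78) had the same sign in both. Aif1 (1.74 and at least 1.88), Itgb4 (1.90 and 2.09), Txnip (2.02 and 1.33) and Serping1 were at least 2-fold higher in both. The microglia and macrophage list had medians of 1.12 and 0.72, with 2 of 10 genes at least 2-fold higher in the controls. The ependymal cilium list had medians of 0.62 and 0.74. Fibrillar collagens had medians of -0.36 and -0.50, with 4 and 7 of 19 genes at least 2-fold lower. Matricellular proteins and proteoglycans (-0.19 and -0.41) and cholesterol genes (-0.53 and -0.68) were also lower in the controls. The other way went fibroblasts and meninges (-0.91 and -0.57), antigen presentation (0.47 and 0.32) and the oligodendrocyte lineage (0.84 and 0.30), with larger medians in the M337V arrays. Values further apart were seen for Bcas1 (3.27 and 0.31), Tgfa (2.46 and -0.27), Cfp (2.47 and 0.34), Pnoc (-2.43 and -0.58) and Aurkb (1.03 and 0.01). Another 64 of the 225 higher genes were not detected on any control array, among them Lyve1, C1qa, C1qc, Ccl6, Fli1 and Ctla2a, so that no control difference exists for them. Among all 8486 genes described, 820 were not detected on any control array. Serpina3n was lower by 1.27 in the M337V arrays and higher by 0.88 in the controls.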

How the data were processed

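Total RNA of cultured astrocytes was labelled with biotin and hybridised to an Illumina rat beadchip, per the labels, and the submitters' processing notes name GenomeStudio, of a version not given in the sources used here. The deposited table holds a summarised intensity per probe and a detection p-value per array, per the file headers, with no normalization between arrays. A second deposited table holds log2 values, which the authors centred per probe. Set against the intensities, its differences between arrays equal log2 signal scaled by the upper quartile, within 0.00238, while the centring is unknown. Its column medians were 0.07, -0.07 and -0.15 for the M337V arrays of days 3, 4 and 6 and 0.01 to 0.05 for the controls.

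Intensities of all 6 arrays were normalized with limma's neqc (limma 3.58.1, R 4.3.3): normexp background from the detection p-values, offset 16, quantile normalization and log2. Of 22523 probes, 13793 have 1 gene symbol, none has several and 8730 have none and were left out. Of the named probes, 13752 matched the GRCr8 gene table by Entrez number, 41 did not, and no symbol changed. A gene was represented by its detected probe with the highest mean over the M337V arrays, and 6 called genes have another detected probe, of which 5 had the same sign and 3 were also 2-fold, Mastl being the exception in sign. Where a gene was not detected on 1 of the 2 days, that day's level was set to the higher of its own signal and the lowest detected signal of the array, and the fold is given as "at least". Genes detected only on day 4 (373) have no day 6 to day 3 difference.

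The 48 gene lists hold 966 symbols, 684 of them described. The arrays, lists and tests were chosen with earlier results of these data known. The named genes are the 15 largest differences in each direction among genes detected on all 3 arrays, the largest bounds, the largest day 4 peaks and troughs, the genes that pass the trend test, list members at least 2-fold different, and Tardbp, Gfap, Lcn2 and Chi3l1. Other genes, among them Cfd, Sdc1 and Txnip, are named as examples, and their 2-fold calls were not followed over the settings. The trend script was tested on simulated data. With 1 array per day, precision is limited by the number of arrays, and no error of a difference is given. Settings varied were the normalization, background correction, offset, detection limit, probe rule, fold and variance model.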

Additional observations from a re-analysis of the deposited data

Results flagged for a closer look

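Serpina3n, a serine protease inhibitor raised in reactive astrocytes, is listed because its level moved in opposite directions in the 2 genotypes. Day 6 minus day 3 was -1.273 in the M337V arrays, where day 4 was already 0.957 lower than day 3 (-0.957), and 0.878 in the tTA control arrays, where day 4 was higher by 0.885. Each value compares single arrays and the difference between the genotypes was not tested. The gene was under 2-fold in the M337V arrays under median scaling (-0.80), on the deposited values (-0.82) and without background correction (-0.76).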

How the results depend on the processing

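The 225 higher and 75 lower genes of day 6 against day 3 became 543 and 20 with median scaling, 107 and 22 on the deposited values, 91 and 23 without background correction, 149 and 40 with an offset of 50, and 586 and 460 at 1.5-fold. The share of calls that were higher was 75.0% and became 96.5% with median scaling, 80.4% with cyclic loess, 83.0% on the deposited values and 56.0% at 1.5-fold. Day 4 against day 3 gave 35 higher and 18 lower genes, and day 6 against day 4 gave 89 and 16. The 278 steady changes became 539 with median scaling, 125 on the deposited values, 110 without background correction, 181 with an offset of 50 and 920 at 1.5-fold. The 8 lists with a median of at least 0.5 either way became 13 with median scaling or with genes detected on all 3 arrays, 5 without background correction, 2 for day 4 against day 3 and 4 for day 6 against day 4. The 2 day 4 peaks became 5 with median scaling or cyclic loess, 0 on the deposited values or without background correction and 1 with an offset of 50. The 216 genes called in the control arrays became 93 on the deposited values, 80 without background correction, 125 with an offset of 50 and 939 at 1.5-fold. The 21 trend genes became 1 with the M337V arrays normalized alone, 554 with median scaling, 506 on the deposited values, 819 without background correction, 663 with an offset of 50, 241 with genes detected on all 3 arrays, 45 with a slope per genotype over all 6 arrays and 936 with a variance trend. The cause of these shifts was not tested. Among the named genes picked by rule, none that was called changed sign. Across these settings a call of such a gene was lost 95 times, most often without background correction (31). A call was gained 33 times, most often with median scaling (27). Genes named only as examples are not in these counts. Adamts2 was among those lost, at -0.63 with median scaling. The deposited values were taken for the same probes with no floor. No paired analysis was possible because the labels carry no replicate numbers and each genotype and day has 1 array, which is also why no array could be left out. Single arrays, the dim day 3 array and probes near background limit the precision.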
